A study of Mus musculus with 18 samples.

Results

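Nanog, Esrrb, Tfcp2l1, Nr0b1, Nr5a2, Tbx3, Klf2, Klf5 and Tcl1 are 9 genes of the naive pluripotent state, the state of mouse ES cells kept in LIF. They were taken by name, with every probe set that the platform annotation gives to that symbol alone. This gave 18 of the 40508 probe sets on the array and 9 of its 17903 genes. Levels are log2 RMA signal, so a step of 1 is a doubling. The lowest value the table holds is 5.64, the log2 of 50, and a level written as "at the floor" may be anything below it.

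The samples were 18 mouse arrays, 1 per sample, from reprogramming of cells without (ko) and with (wt) Tcf3, the former name of Tcf7l1. Ko and wt cultures that had received OCK (Oct4, c-Myc and Klf4) were sampled on 5 days (11, 15, 19, 22 and 26), and each genotype gave 1 array a day. The established iPSC clones were 2 OCK Tcf3 ko clones, 2 OSK (Oct4, Sox2 and Klf4) Tcf3 ko clones and 1 OSK Tcf3 wt clone. A partial OCK iPS clone, Tcf3 wt by genotype and only partly reprogrammed, had been treated for 2 days with siTcf3-A, siTcf3-B or a control siRNA (siCtrl), 1 array each. Each of the 5 is 1 clonal line, the partial clone is 1 line, and the cultures are mixed populations. All samples had received introduced factors, and no starting cell, ES cell or OCK wt iPSC array was analysed here. The labels do not give separate cultures for the siRNA arrays or for the days of a genotype, so the spread behind every p-value is that between arrays and may be technical.

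Naive pluripotency is held by a network of transcription factors that activate each other and the core gene Pou5f1 (Oct4). In ES cells Tcf7l1 binds many of these genes together with Oct4 and Nanog and represses them, and Wnt signalling lifts that repression through beta-catenin. Esrrb, Nanog, Klf2 and Tfcp2l1 are known from ES cells as genes that go up when Tcf7l1 is lost.

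Tcf7l1 recognises letters of the type CTTTGA or CTTTGT. The promoters of the members were searched for these 2 words on both strands (TCAAAG and ACAAAG on the other strand). The reason was that Tcf7l1 is known to repress many of these genes in ES cells. RefSeq (build GRCm38.p6) listed 10 start sites for 7 members, and the 250 bases before each start were read. A match stood in 2 of the 10 member promoters (20.0%), against 9075 of 32851 promoters of all genes (27.6%). Of the 7 members 2 had a match before any of their starts (28.6%), against 30.8% of all genes. The 3 windows below are those of Nr0b1 and of 1 Nr5a2 start, which hold the matches, and of the outer Nanog start, which holds none; capitals mark the matches.
Nr0b1, chrX:86191525-86191774, plus strand: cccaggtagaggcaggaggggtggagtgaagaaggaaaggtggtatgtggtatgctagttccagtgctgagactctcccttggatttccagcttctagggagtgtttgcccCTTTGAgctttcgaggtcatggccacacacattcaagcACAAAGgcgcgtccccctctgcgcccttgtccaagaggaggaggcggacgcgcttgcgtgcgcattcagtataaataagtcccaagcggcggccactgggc
Nr5a2, chr1:136953631-136953880, minus strand: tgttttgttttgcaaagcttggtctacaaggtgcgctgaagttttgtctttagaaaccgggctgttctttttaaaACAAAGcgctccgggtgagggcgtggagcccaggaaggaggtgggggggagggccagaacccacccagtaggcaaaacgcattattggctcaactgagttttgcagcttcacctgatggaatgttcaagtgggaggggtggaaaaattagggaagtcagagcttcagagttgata
Nanog, chr6:122707239-122707488, plus strand: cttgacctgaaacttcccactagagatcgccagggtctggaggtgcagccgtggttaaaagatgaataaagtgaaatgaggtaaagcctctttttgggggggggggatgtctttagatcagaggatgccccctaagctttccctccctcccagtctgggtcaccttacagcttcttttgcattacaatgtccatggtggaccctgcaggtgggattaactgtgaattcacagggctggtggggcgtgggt
In Nr0b1 the matches began 139 and 101 bases before the start, on opposite strands, and in Nr5a2 the match began 175 bases before it. The lack of a match in the other windows says only that these letters are not there, since sites farther away were not read.

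Each member was read by the probe set with its highest mean over the 18 arrays. Nanog, Nr0b1, Klf2 and Tcl1 had 1 probe set, Esrrb and Tfcp2l1 had 2, Klf5 and Nr5a2 had 3, and Tbx3 had 4. Of the 18 probe sets 5 were at the floor on all 18 arrays (3 of Tbx3, 1 of Klf5, 1 of Tfcp2l1), and the faintest Nr5a2 probe set left it on 1 array alone. Since probes differ in brightness, a level is compared only with the same gene's level on other arrays.

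The sample labels were set against marker genes. In the 5 iPSC clones 8 of 8 pluripotent-cell markers (a list that holds Nanog) were above the floor, and in the partial clone 7 of 8, with the ES cell gene Zfp42 at the floor on all 3 arrays. Mesenchymal markers, 10 genes with collagens and Twist1 among them, summed to linear signals of 49037 to 100788 in ko cultures and 60637 to 98907 in wt cultures, to 1725 to 4172 in the iPSC clones, and in the partial clone to 10763 to 11538 with siTcf3 and 14021 with siCtrl. Tcf7l1 itself had 9.48, 9.37, 8.61, 8.10 and 8.44 in ko cultures on the 5 days, against 9.90, 9.70, 9.07, 9.06 and 9.17 in wt cultures. It had 8.80 and 8.77 with siTcf3-A and -B, against 9.93 with siCtrl, and 9.49 and 9.37 in the OSK ko clones and 9.45 and 9.56 in the OCK ko clones, against 10.68 in the OSK wt clone. These values are of its brighter probe set. The other had 7.79 and 7.56 with siTcf3-A and -B, against 9.86 with siCtrl, a larger difference (-2.18 log2, against -1.15). On both probe sets Tcf7l1 was lower in each ko culture, siTcf3 array and OSK ko clone than in its control, and the OCK ko clones, which have no OCK wt control here, were below the OSK wt clone. It stayed above the floor everywhere, but the position of its probes relative to the deletion is unknown here, so they may not check the knockout.

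The first question was in which order the genes appeared in OCK cultures. Tbx3, Klf2 and Klf5 were already above the floor on day 11 in both genotypes, Nanog, Nr0b1 and Tfcp2l1 appeared between days 15 and 19, and Esrrb, Nr5a2 and Tcl1 came above the floor only in the ko culture, on days 22 or 26. No member came within 1 log2 of its lowest iPSC clone on any culture day, in either genotype. All 9 were higher in each of the 5 iPSC clones than on each of the 10 culture arrays, which was the case for 25.7% of 14064 genes. In these bulk samples fewer cells that express a gene and less RNA per cell cannot be told apart, and a faint probe set reaches the floor sooner, so the order is one of detection.

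**Figure D1:**
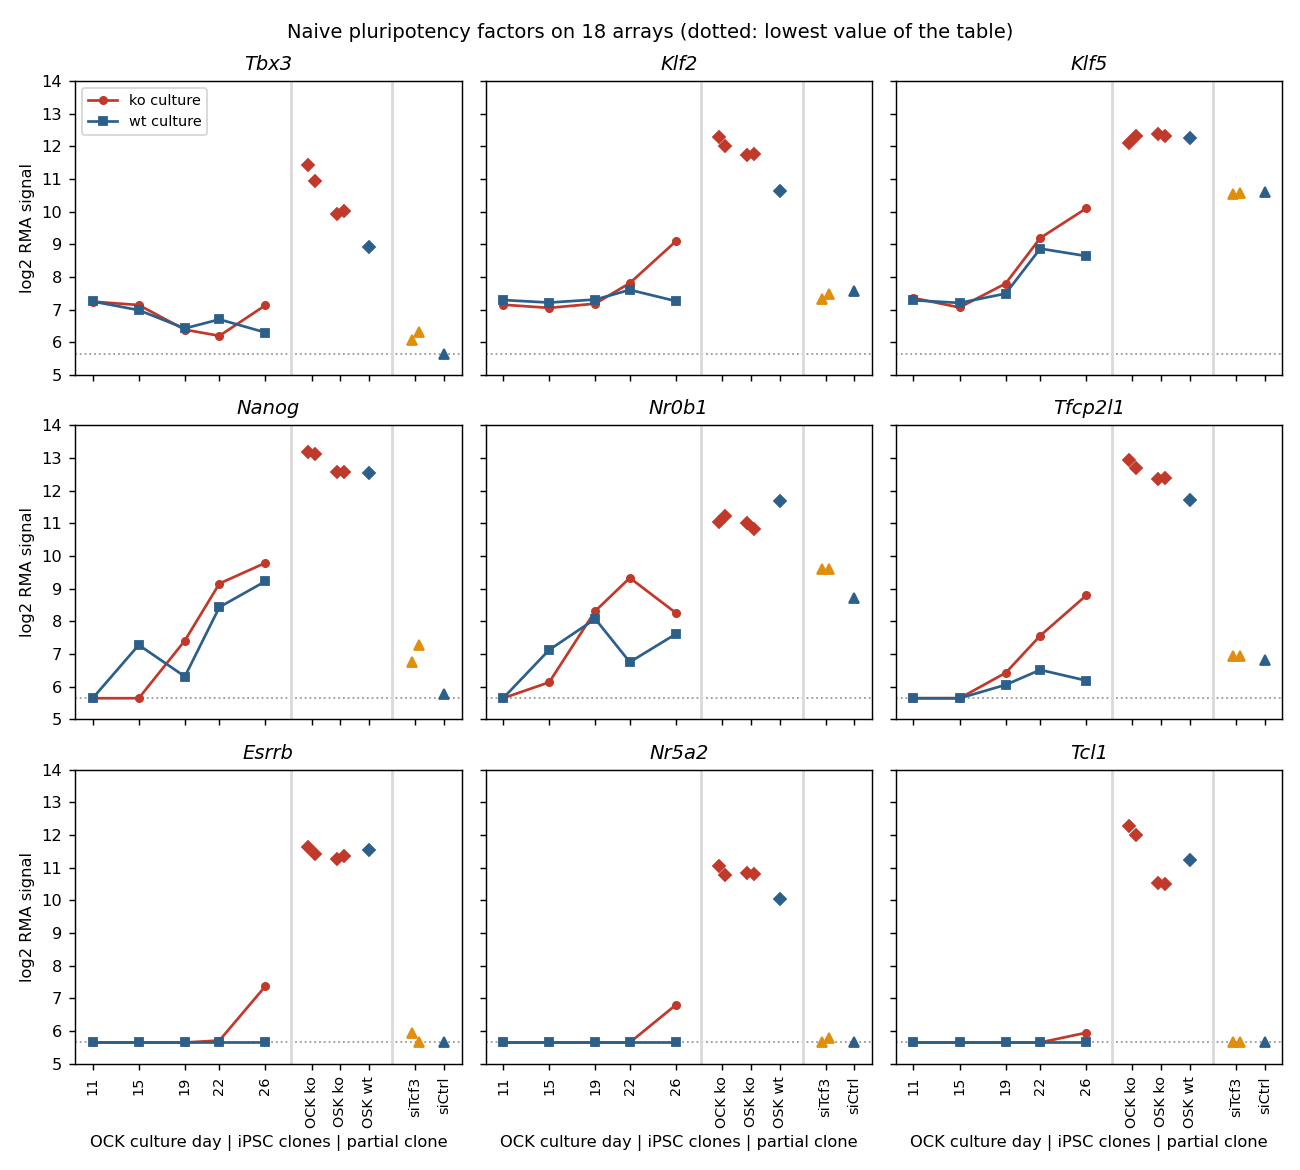
Log2 RMA signal (y axis) of the 9 members on the 18 arrays. Red lines are OCK ko cultures and blue lines OCK wt cultures by day (x axis, 1 array a point), diamonds are iPSC clones (red ko, blue wt), triangles are the partial clone (orange siTcf3, blue siCtrl), and the dotted line is the floor of 5.64. Every iPSC clone lies above every culture array, and Esrrb, Nr5a2 and Tcl1 leave the floor in cultures only in ko.

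Of the 3 genes seen from the start, Tbx3, a T-box factor that also acts in many embryonic tissues, was highest at the start. It had 7.25, 7.14, 6.39, 6.20 and 7.14 in ko cultures on days 11, 15, 19, 22 and 26, and 7.25, 6.99, 6.43, 6.70 and 6.30 in wt cultures. Day 11 held its highest value in both genotypes, at 10.5% of the iPSC mean on the linear scale in each. Klf2, a Krüppel-like zinc-finger factor, had 7.15, 7.05, 7.18, 7.81 and 9.09 in ko cultures and 7.30, 7.22, 7.31, 7.61 and 7.26 in wt cultures. Klf5, a related zinc-finger factor that is also made in epithelia, had 7.36, 7.07, 7.80, 9.19 and 10.10 in ko cultures and 7.29, 7.21, 7.49, 8.87 and 8.64 in wt cultures. Up to day 15 neither Klf gene differed between days by more than 0.3 log2, and both were highest in the ko culture on day 26.

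Nanog, the homeodomain factor of the core network, was at the floor on days 11 and 15 in ko cultures and then had 7.41, 9.15 and 9.79. In wt cultures it was at the floor on day 11 and then had 7.28, 6.31, 8.43 and 9.23. It thus appeared a sampling day earlier in wt and was higher in ko from day 19 on. Nr0b1 (Dax1), an X-linked orphan nuclear receptor that binds Oct4, had 6.13, 8.31, 9.33 and 8.26 in ko cultures from day 15 on and 7.12, 8.07, 6.75 and 7.61 in wt cultures, with both genotypes at the floor on day 11. Its highest day was 22 in ko and 19 in wt, and the ko value of day 22 was 1.50 log2 under the lowest iPSC clone, the smallest gap of any member. Tfcp2l1, a CP2-family factor downstream of LIF and Stat3, was at the floor on days 11 and 15 in both genotypes, and had 6.42, 7.56 and 8.79 in ko cultures and 6.05, 6.51 and 6.18 in wt cultures on days 19, 22 and 26. It was higher on each later day in ko, while no wt value stood 1 log2 above the floor.

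Esrrb, an orphan nuclear receptor and a main target of Tcf7l1 in ES cells, was at the floor on all 5 wt days. In ko cultures it was there too until day 19 and had 5.70 on day 22 and 7.37 on day 26; its other probe set left the floor on the same ko day 26 array (5.75) and on no other culture array. Nr5a2 (Lrh1), a nuclear receptor that can stand in for Oct4 among reprogramming factors, was above the floor in cultures only on ko day 26, at 6.80, and so was its other measured probe set, at 6.37. Tcl1, a coactivator of the Akt kinase and no transcription factor, likewise left the floor only on ko day 26, at 5.94. Among the 11505 genes above the floor in all 5 iPSC clones, the pattern of Nr5a2 and Tcl1 (2 of 9 members) was met by 26 genes (0.226%). The pattern was taken from these 2 members, so their own count was fixed in advance. Each of these detections rests on 1 array.

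**Figure D2:**
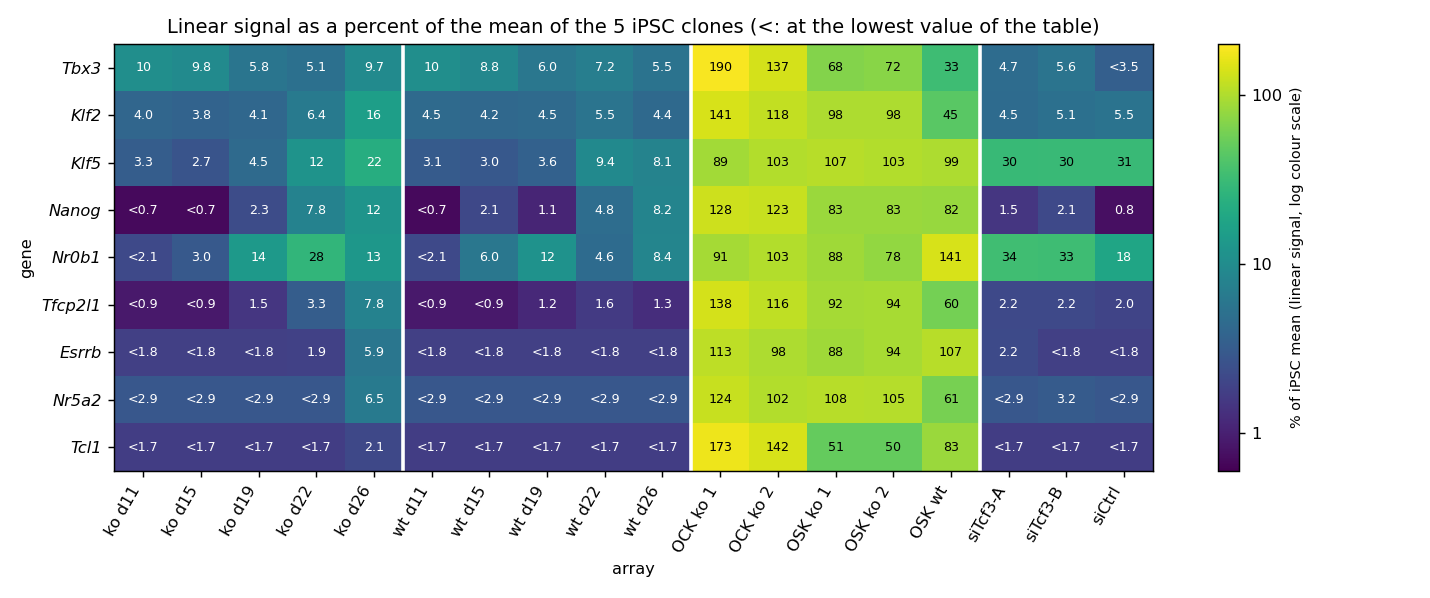
Linear signal of each member (rows) on each array (columns) as a percent of its mean over the 5 iPSC clones, with a log colour scale; "<" marks arrays at the floor, where the number is an upper limit. On ko day 26 the 9 genes lie between 2.13% and 22.2%, and in the partial clone Klf5 and Nr0b1 stand above the other 7.

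On the scale of the iPSC clones, the last ko culture held a small part of each gene's final level. On day 26 Klf5 was at 22.2% of the iPSC mean in ko and 8.07% in wt, Klf2 at 15.6% and 4.37%, Nr0b1 at 13.1% and 8.39%, and Nanog at 12.2% and 8.25%. Tbx3 was at 9.73% in ko and 5.45% in wt, and Tfcp2l1 at 7.84% and 1.29%. Nr5a2, Esrrb and Tcl1 were at 6.50%, 5.92% and 2.13% in ko, where the wt culture was at the floor, which allows at most 2.93%, 1.79% and 1.73%. The 3 genes that appeared last were also the lowest in proportion, but both are read from the same culture arrays and are not independent. In ko 2 members had been higher on an earlier day, Tbx3 on day 11 and Nr0b1 on day 22, at 27.6%, against 4.62% in wt.

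Over the time course of both genotypes together 5 of the 9 members rose, 0 fell and 4 did not pass. The change is the mean of the ko and wt straight-line slopes, tested with limma over 13428 genes, of which 18% rose and 18.7% fell at a Benjamini-Hochberg adjusted p under 0.05. Nanog rose by 0.27 ± 0.037 log2 per day (SE, 10 arrays; limma adjusted p = 0.00402), Nr0b1 by 0.16 ± 0.045 (adjusted p = 0.0235), Klf5 by 0.16 ± 0.028 (0.00656), Tfcp2l1 by 0.14 ± 0.021 (0.0049) and Klf2 by 0.066 ± 0.020 (0.0345). Esrrb (0.047, adjusted p = 0.123), Nr5a2 (0.031, 0.153), Tcl1 (0.0081, 0.591) and Tbx3 (-0.046, 0.107) did not pass; for the first 3 most arrays are at the floor. The median slope was 0.066 over the members and -0.0011 over all genes. Of the other pluripotency genes 14 of 17 tested rose, with Dppa5a (0.39), Sox2 (0.34) and the reporter gene Fbxo15 (0.31) at the top, and of the genes of the primed epiblast, the later state that naive cells pass into, 5 of 10 rose, with Zic2 (0.22) and the methyltransferase Dnmt3b (0.18) at the top. Markers of other cells changed over the same days: 9 of 10 mesenchymal genes and 3 of 6 primitive endoderm genes fell, 6 of 9 neural and 4 of 8 trophoblast genes rose, and of 10 epithelial genes 3 rose and 2 fell; their part in the members' changes was not tested. Without day 11 none of the 9 members passed and no gene of the array did (Nanog 0.30 per day, adjusted p = 0.0691), and without day 15 3 members passed. When the 2 arrays of a day were averaged before the line was drawn, 2 members passed, Nanog and Tfcp2l1.

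The next question was whether loss of Tcf3 moved these genes in the OCK cultures. Averaged over the 5 days the fitted difference was above 0 in ko for all 9 members, as it was for 57.5% of genes, but none of the differences passed. For Esrrb, Nr5a2 and Tcl1 the sign was fixed in advance, since all 5 wt arrays were at the floor. With day as a block limma called 0 of the 9 members and 0 of 13428 genes (0%), and 0 members against 3.37% of all genes had an unadjusted p under 0.05. The largest difference was that of Tfcp2l1, at 0.80 ± 0.38 log2 (SE, 5 ko and 5 wt arrays; adjusted p = 1.00). It was 0.49 ± 0.45 for Nr0b1, 0.40 ± 0.22 for Klf5 and 0.32 ± 0.30 for Klf2, and for Nanog (0.15 ± 0.37) and Tbx3 (0.089 ± 0.17) it was smaller than its error; Nanog, Nr0b1 and Tfcp2l1 include arrays at the floor in both genotypes. Esrrb, Nr5a2 and Tcl1 were at the floor on all 5 wt arrays and on 3, 4 and 4 of the 5 ko arrays. No size of difference or bound can therefore be given for their means, and they have no place in that order. With floored arrays of both genotypes taken at the floor the means differed 1.28-, 1.17- and 1.04-fold (limma adjusted p = 1.00 each). With these 3 at those values the median over the members was 0.32, against 0.013 over all genes tested. The sign of some mean differences rests on 1 day: without day 26 the estimates of Klf2 and Tbx3 were below 0 (-0.056 and -0.098), without day 22 so was Nr0b1 (-0.026), and without day 19 so was Nanog (-0.087). A steeper line in ko was estimated for all 9, for 16 of 17 other pluripotency genes and for 50.4% of all genes, with the wt lines of Esrrb, Nr5a2 and Tcl1 flat at the floor. It was steeper by up to 0.17 ± 0.041 log2 per day for Tfcp2l1 and 0.12 ± 0.041 for Klf2. After adjustment 0 of 9 members and 0 of 13428 genes (0%) had unequal slopes by limma; at an unadjusted p under 0.05 there were those 2 members and 1.55% of all genes.

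**Figure D3:**
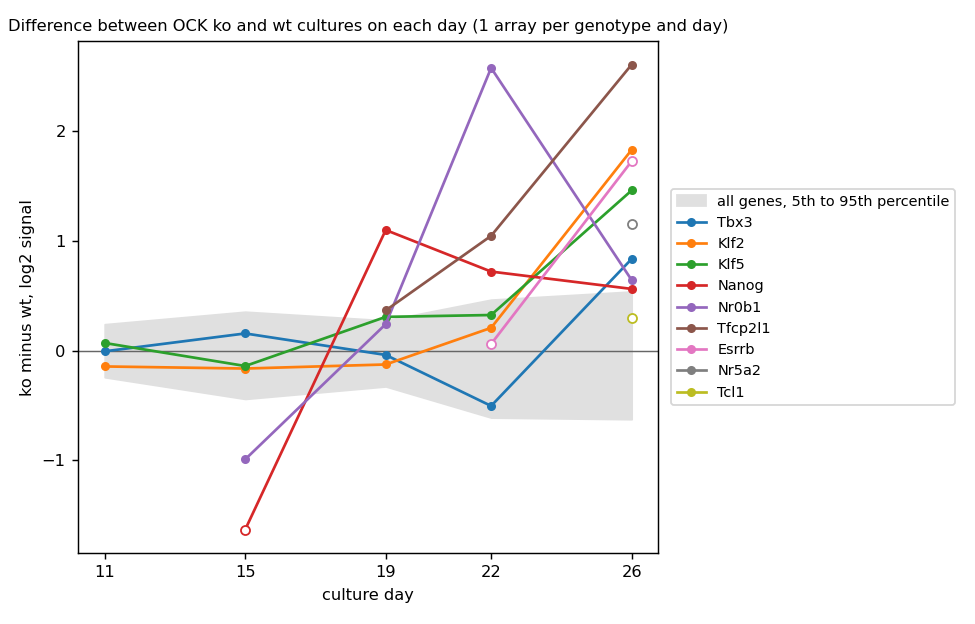
Ko minus wt log2 signal (y axis) of each member on each culture day (x axis), from 1 array per genotype and day. The grey band holds the 5th to 95th percentile of all genes above the floor on either array; on day 26 all 9 points are above 0, and 8 of them are above the band. Open points are bounds whose direction was fixed, with 1 of the 2 arrays at the floor. Days with both arrays at the floor have no point.

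Day by day, without a test because each day has 1 array per genotype, the genes moved apart at different times. On day 11 0 of 3 measurable members differed by 1 log2 in either direction (0.0401% of genes were that much higher in ko and 0.0321% lower). On day 15 Nr0b1 (-0.99 log2) was lower in ko than in wt, and so was Nanog, whose ko array was at the floor, so that its -1.63 is the smallest size the difference can have. Of 5 measurable members 1 was lower by at least 1 log2 (0.905% of genes) and 0 were higher by as much (0.0551%). Of 19 other pluripotency genes 10 were above the floor in ko on day 15, with a summed linear signal of 5494, against 14 and 7421 in wt. The lower values of that ko array were thus not particular to Nanog and Nr0b1. On day 19 Nanog was higher in ko by 1.10 log2 (1 of 6 members at 1 log2 or more, 0.176% of genes; 0 that much lower, 0.934%). On day 22 Nr0b1 was higher by 2.58 and Tfcp2l1 by 1.05 (2 of 7, 0.317% of genes; 0 that much lower, 1.12%), while the difference of Tbx3 was -0.50. By any amount, ko was above wt for 1 of 3 members on day 11 (54.6% of genes), 1 of 5 on day 15 (57.7%), 4 of 6 on day 19 (51.1%), 6 of 7 on day 22 (52.6%) and 9 of 9 on day 26 (57.6%). On day 26, 0 members were lower in ko by 1 log2 (2.57% of genes) and 5 of the 9 were higher by that much (1.16%): Tfcp2l1 (2.61), Klf2 (1.83), Klf5 (1.46), Esrrb (at least 1.73) and Nr5a2 (at least 1.15). Tbx3 differed by 0.84, Nr0b1 by 0.64, Nanog by 0.56 and Tcl1 by at least 0.30. Esrrb, Nr5a2 and Tcl1 were at the floor in wt, so their values are lower bounds and their direction was fixed in advance, as was that of Esrrb on day 22. The members' median was at least 1.15.

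The ko day 26 array, on which those differences rest, stood apart in other markers too. Its pluripotent-cell markers summed to a linear signal of 15967, against 8506 in wt on that day, and Zfp42 was at 7.37 there, against the floor in wt. Trophoblast markers, 8 of 9 of them above the floor as on ko day 22, summed to 2033 on it. The sum was 1016 in wt on day 26, 539 to 1016 on the other 9 culture arrays and 1200 to 1899 in the iPSC clones. The placental gene Tpbpa was at 8.72 on ko day 26, against the floor in wt, and Elf5 at 8.07, against 7.26 in wt. Krt7 was at 9.6, against 8.5 in wt, while Gata3 was lower in ko (5.74, against 6.25). Epithelial markers, all 10 of them above the floor as in wt on that day, summed to 16141, against 9682 in wt on that day and 3590 to 11382 on the other 9 culture arrays. Of these genes Epcam (11.99) and Cdh1 (11.83) were about as high in the iPSC clones. Krt1 (7.41, against 7.66 in wt) and Ivl (6.16, against 6.45) were lower in ko and the rest higher. Neural markers went the other way, with a sum of 5034, against 8934 in wt, and Dcx at the floor, against 9.72 in wt. Tbx3, Klf5, Nr5a2 and Esrrb are known in trophoblast or in other epithelia as well, and the part of these cells in the members' signals was not tested. With 1 array on that day, a difference between the genotypes and one between these 2 cultures cannot be told apart.

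In the partial clone, 48 hours of Tcf3 siRNA is the short-term counterpart of the knockout. Nanog and Nr0b1 had higher values with both siRNAs, by about the same amount with each for Nr0b1, but no member passed the test over all genes. Nanog had 6.76 and 7.29 with siTcf3-A and -B, against 5.78 with siCtrl. Nr0b1 had 9.61 and 9.60, against 8.73. Both siTcf3 arrays lay above the control for these genes, which in Nanog was near the floor. By limma the difference was 1.24 ± 0.21 log2 for Nanog (2.36-fold; SE, 2 and 1 arrays; adjusted p = 0.114) and 0.87 ± 0.13 for Nr0b1 (1.83-fold; adjusted p = 0.0922).

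Among the other members Tbx3 had 6.09 and 6.33 with siTcf3, against the floor with siCtrl (at least 1.48-fold; adjusted p = 0.363). Tfcp2l1 had 6.94 and 6.93, against 6.80, and Klf5 had 10.53 and 10.56, against 10.59. Klf2 had 7.31 and 7.48, against 7.59, so it was lower on both siTcf3 arrays. Esrrb left the floor only with siTcf3-A (5.94) and Nr5a2 only with siTcf3-B (5.78), while Tcl1 stayed at it on all 3 arrays and was not tested. Of the 8 tested members 0 passed, where 14 of 12636 genes did (0.111%), all 14 lower with siTcf3; at an unadjusted p under 0.05 there were 3 members (Nanog, Nr0b1, Tbx3) and 12.7% of genes. Both siTcf3 arrays lay above the control for 4 of the 8 (36.6% of genes) and by at least 0.5 log2 for 2 of the 8, Nanog and Nr0b1 (0.522% of genes). Both lay below it for Klf2 and Klf5, 2 of the 8 (39.8% of genes), by differences of -0.19 ± 0.15 and -0.046 ± 0.12. The Klf5 difference turned to 0.020 when each array was centred on its median. Sums of markers of other cells were lower with siTcf3 as well. Neural markers summed to 9229 to 10020, against 12448 with siCtrl, and mesenchymal markers to 10763 to 11538, against 14021. Most of the neural sum was Stmn2 (12.84 and 12.67, against 13.21), which had 11.8 to 12.5 in the iPSC clones. Of the 6 neural genes tested 5 were below 0, and Pax6 was above it (8.25 and 8.33, against 8.07). The part of these markers in the members' differences was not tested.

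The partial clone was set against the iPSC clones to ask which members it lacks. With siCtrl 7 of the 9 members were far below the iPSC mean, 4 of them at the floor, and 2 held a larger share of it. Esrrb, Nr5a2, Tbx3 and Tcl1 were at the floor (4 of the 9 members, against 4.82% of the 11505 genes above the floor in all iPSC clones), which allows at most 1.79%, 2.93%, 3.46% and 1.73% of the iPSC mean. Nanog was at 0.76%, Tfcp2l1 at 1.97% and Klf2 at 5.47%. Nr0b1 and Klf5 had the largest shares, at 18.2% and 31.1%, which is more than in any wt culture. With siTcf3-A and -B Nr0b1 was at 33.5% and 33.2%, Nanog at 1.49% and 2.15%, and Klf5 at 29.9% and 30.5%. Of the 5 clones in that mean 4 are Tcf3 ko, while the partial clone is wt. The OSK wt clone alone was above siCtrl by 1.67 log2 for Klf5, 2.95 for Nr0b1, 3.04 for Klf2 and at least 3.26 for Tbx3 (1 array each). By this measure Nr0b1 did not stand apart from Klf2, and the remaining members differed by more.

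All 5 iPSC clones were above all 3 partial clone arrays for 9 of 9 members, against 33.1% of genes, and all 9 rose by limma, against 37.3% of 13571 genes (27.4% fell). The 3 partial clone arrays are of 1 OCK line with Tcf3, treated with siRNA, while 4 of the 5 iPSC clones are ko and most are OSK. State of reprogramming, genotype, factor set, treatment and line thus cannot be told apart in this comparison. The difference between the means of the iPSC groups and of the partial clone groups was 6.35 ± 0.13 log2 for Nanog (SE, 5 and 3 arrays; limma adjusted p = 1.26e-06), 5.74 ± 0.10 for Esrrb and 5.43 ± 0.083 for Tfcp2l1. Tcl1 was at least 50.3-fold higher, the partial clone being at the floor throughout. The differences of Nr5a2 (4.91 ± 0.093), Tbx3 (4.10 ± 0.14) and Esrrb also include arrays at the floor, and that of Klf2 was 4.01 ± 0.093. Nr0b1 (2.08 ± 0.082) and Klf5 (1.70 ± 0.079; adjusted p = 1.18e-05) differed least. The median was 4.91 over the members and 0.058 over all genes tested. Of 19 other pluripotency genes 17 rose, with Zfp42 (6.87) and the 5-methylcytosine oxidase gene Tet1 (5.08) at the top, and 2 fell, Klf4 (-1.35) and Pou5f1 (-0.74 ± 0.13), both of which encode reprogramming factors of OCK and OSK; their probe sets may also detect the introduced copies. Of 11 primed epiblast genes 8 rose, with Lefty2 (3.82) and Otx2 (2.80) among them, and 2 fell, Cdh2 (-2.19) and Zic2 (-1.96).

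Among the iPSC clones the members did not vary alike. Klf5 spanned 0.26 log2 over the 5 clones, Esrrb 0.35 and Nanog 0.63, against 1.66 for Klf2, 1.78 for Tcl1 and 2.52 for Tbx3. In linear signal Tbx3 was at 190% and 137% of the mean in the OCK ko clones, at 68.0% and 71.8% in the OSK ko clones and at 33.2% in the OSK wt clone.

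For the stable loss of Tcf3, the OSK ko clones were set against the OSK wt clone. Klf2 rose, and the other 8 members did not pass. Klf2 had 11.75 and 11.76 in the ko clones, against 10.62 in the wt clone, a difference of 1.13 ± 0.15 log2 (2.19-fold; SE, 2 and 1 arrays; limma adjusted p = 0.0435). Of 12670 genes 0.3% passed as higher, 0.387% as lower and 0.687% in either direction. The call is near the threshold: leaving out OSK ko clone 1 (adjusted p = 0.265) or clone 2 (0.288) removed it, settings in which 0 genes of the array passed, and so did a fit of the 5 iPSC arrays alone (0.174), limma's plain prior (0.157), a fit of every probe set on its own (0.0627) and a test of only the genes without a floored array (0.0663).

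Tbx3 had 9.94 and 10.02 in the OSK ko clones, against 8.91 in the wt clone (1.07 ± 0.21 log2, adjusted p = 0.0991). Nr5a2 had 10.85 and 10.81, against 10.02 (0.80 ± 0.15, adjusted p = 0.0823), with 0.86 ± 0.20 on its other probe set. Tfcp2l1 had 12.35 and 12.37, against 11.72 (0.65 ± 0.13, adjusted p = 0.103). These values lie above the wt clone in both ko clones, but 1 wt clone gives no spread of its own. In the other direction Nr0b1 was at 87.7% and 78.0% of the iPSC mean in the ko clones, against 141% in the wt clone (-0.77 ± 0.13, adjusted p = 0.0721), and Tcl1 was at 50.9% and 50.3%, against 83.3% (-0.72 ± 0.14, adjusted p = 0.0933). For Nanog (12.56 and 12.56, against 12.55), Klf5 (12.37 and 12.31, against 12.26) and Esrrb (11.27 and 11.36, against 11.55) the ko clones lay within 0.3 log2 of the wt clone. Both ko clones were at least 0.5 log2 above the wt clone for 4 of the 9 members (2.83% of genes) and at least that far below it for 2 of the 9 (4.21% of genes); 6 of the 9 had an unadjusted p under 0.05, against 12.8% of genes.

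Other markers differed between these clones. Mesenchymal markers summed to linear signals of 2022 and 2092 in the OSK ko clones, against 4172 in the wt clone, with a median difference of -0.96 log2 over the 9 tested and Postn above the floor only in wt (6.88). The neural genes Map2 (-1.86 ± 0.16, limma adjusted p = 0.0212) and Sox1 (-1.77 ± 0.21, adjusted p = 0.0321) and the keratin gene Krt18 (-1.17 ± 0.13, adjusted p = 0.0292) fell too, as 2 of 7 neural and 1 of 5 epithelial markers tested. Of 9 primitive endoderm markers 0 passed, with 8 above 0 and a median of 0.43. Neural markers did not all move 1 way: of the 7 tested 5 were below 0, while Stmn2 (0.49) and Tubb3 (0.48) were above it. The summed neural signal was higher in the OSK ko clones (6122 and 5946) than in the wt clone (4963). The part of all these markers in the differences of the members was not tested. A difference between these clonal lines and an effect of genotype cannot be told apart.

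**Figure D4:**
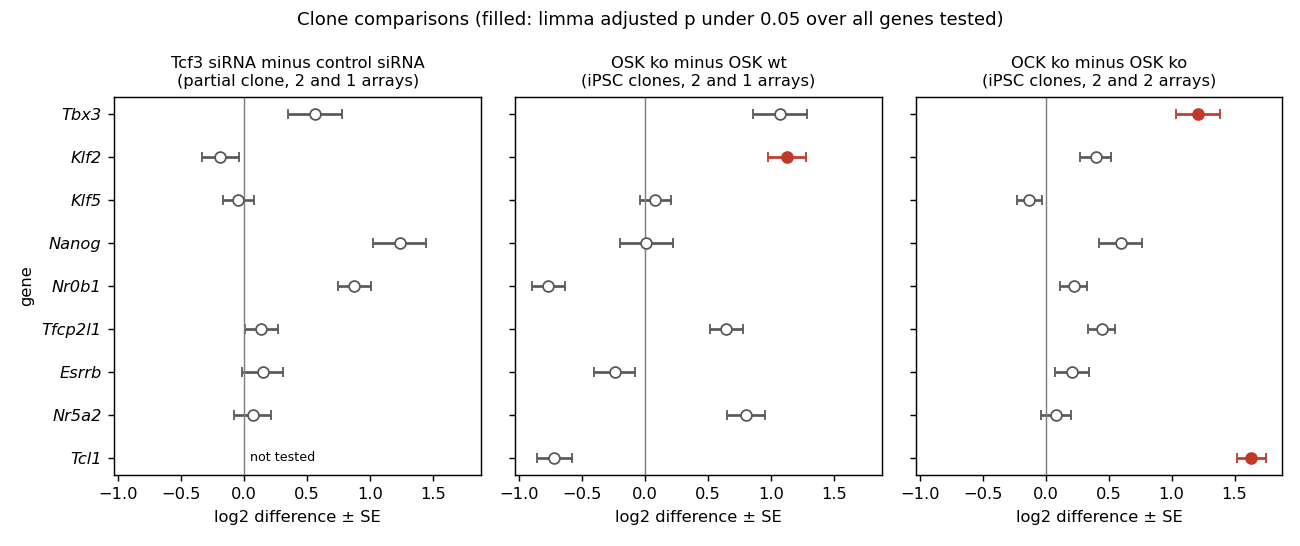
Log2 difference ± SE (x axis, limma) of each member (y axis) for siTcf3 minus siCtrl in the partial clone, OSK ko minus OSK wt clones and OCK ko minus OSK ko clones. In the left panel the control array was at the floor for Tbx3, Esrrb and Nr5a2. Filled points have an adjusted p under 0.05 over all genes tested: Klf2 in the middle panel, Tbx3 and Tcl1 in the right panel.

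Nanog and Nr0b1, the members with the largest differences after siRNA, were thus level or lower in the OSK ko clones. The difference between both effects of depletion (that in OSK clones minus that in the partial clone) was tested as a contrast of the clone fit, chosen after the values had been seen. It was -1.64 ± 0.18 log2 for Nr0b1 (limma adjusted p = 0.0973), 1.32 ± 0.21 for Klf2 (adjusted p = 0.126) and -1.23 ± 0.30 for Nanog (adjusted p = 0.207). Neither any of the 9 members nor any other gene passed (0 of 13403, 0%), so the effects are not shown to differ. At an unadjusted limma p under 0.05 there were 6 members, against 12.4% of genes. Among these 6 were Tcl1 and Nr5a2, at the floor on 3 and 2 of the 3 partial clone arrays, so their siRNA effect could not be measured.

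The factor set was compared between ko clones, OCK against OSK. Tcl1 and Tbx3 rose in OCK ko clones, and the other 7 members did not pass. Tcl1 had 12.29 and 12.00 in the OCK ko clones, against 10.52 and 10.50 in the OSK ko clones, a difference of 1.63 ± 0.11 log2 (3.10-fold; SE, 2 arrays each; limma adjusted p = 0.00367). Tbx3 had 11.43 and 10.95, against 9.94 and 10.02 (1.21 ± 0.17 log2, 2.31-fold, adjusted p = 0.0144). These 2 of 9 stand against 4.87% of 12905 genes higher in OCK, with 5.8% lower and 10.7% in either direction. Without OSK ko clone 1 or 2 neither call held (adjusted p = 0.0544 and 0.0578 for Tcl1, 0.112 and 0.114 for Tbx3). Tbx3 also missed with limma's plain prior (0.0964) and, since 3 of its 4 probe sets are at the floor, with its probe sets averaged (0.0968).

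Nanog had 13.18 and 13.13 in the OCK ko clones, against 12.56 and 12.56 in the OSK ko clones (0.60 ± 0.17 log2, adjusted p = 0.0827). Tfcp2l1 had 12.93 and 12.68, against 12.35 and 12.37 (0.44 ± 0.11, adjusted p = 0.0534), and Klf2 had 12.28 and 12.01, against 11.75 and 11.76 (0.40 ± 0.12, adjusted p = 0.0942). Tfcp2l1 passed with median centring (adjusted p = 0.0346), without OCK ko clone 1 (0.0429) and without clone 2 (0.00571), and without clone 2 Klf2 passed as well (0.0142). Nr0b1 (0.22 ± 0.11), Esrrb (0.21 ± 0.13), Nr5a2 (0.085 ± 0.12) and Klf5 (-0.13 ± 0.10) differed by less. Both OCK clones lay above both OSK clones for 7 of the 9 members (24.8% of genes) and below them for 0 of the 9 (31.4% of genes). The median was 0.40 over the members and -0.018 over all genes tested. Of 19 other pluripotency genes 2 rose, Prdm14 (1.64 ± 0.20), a repressor of differentiation genes, and Fbxo15 (0.99 ± 0.19). The OCK ko clones themselves differed in mesenchymal markers, with sums of 1725 and 3921, against 2022 and 2092 in the OSK ko clones. Of 9 primitive endoderm markers 3 fell in OCK ko, with Gata6 (-1.13 ± 0.22, limma adjusted p = 0.0281) the furthest of these 3 and a median of -0.62 over the 9. Of 6 neural markers 1 rose, Map2 (2.07 ± 0.13, adjusted p = 0.00367). The part of such cells in the members' differences was not tested.

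Over the 18 arrays the members' profiles followed each other, as a description of arrays that share the step between cultures and iPSC. Pearson's r between pairs of members (36 pairs) had a median of 0.918, from 0.618 for Nr0b1 with Tbx3 to 0.995 for Esrrb with Nr5a2. Esrrb, Nr5a2 and Tcl1 were at the floor on 10, 11 and 12 of the 18 arrays, so their r rests largely on the step to the iPSC clones. They were above it on fewer than the 9 arrays asked of the genes compared next. Among 12446 genes above the floor on at least 9 arrays, the profile most like that of Nanog was Tet1 (r = 0.984), then Sall4 (0.981), and that most like Esrrb was Dppa4 (0.996), then Mageb16 (0.995). Tfcp2l1 was closest to Ooep (0.995) and Dhx16 (0.994), Nr5a2 to Dppa4 (0.994) and Sox15 (0.993), and Klf2 to Sox15 (0.994) and Swt1 (0.988). Tcl1 was closest to Pnma5 (0.996) and Mmrn2 (0.994), and Klf5 to Tfap2c (0.985) and Zfp710 (0.982). Lower values were met for Tbx3, with Lrrc57 (0.981) and Jam2 (0.979), and for Nr0b1, with Mrpl28 (0.979) and Rad1 (0.978). The mean of the 9 standardised profiles was closest to Ooep (0.995), Dppa2, Dhx16 and Trap1a (0.994 each) and Dtwd2 (0.989).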

How the data were processed

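Total RNA of 18 mouse samples was measured on Affymetrix arrays. The deposited table holds log2 values that the authors made with RMA, per the submitters' processing notes; for RMA itself no version or settings are named in those notes. Between 44.95% and 46.62% of the values on an array equal the floor of 5.64 (linear 50), a step seen in the values. Of the probe sets 31076 had 1 gene symbol, 636 several and 8796 were not listed and are unnamed here. Each array had 12102 to 12499 genes above the floor. No sample column was left unused (0).

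Groups came from the labels. Genes were tested with limma 3.58.1 (R 4.3.3) with Benjamini-Hochberg adjustment at 0.05. The prior variance came only from genes with no floored array in a fit (prior SD 0.118 for cultures with day blocked, 0.183 for lines over days, 0.112 for clones), genes with some floored arrays took at least that variance, and genes at the floor on all compared arrays were not tested. The clone fit has 3 residual degrees of freedom, and the lone OSK wt and siCtrl arrays are assumed to vary like the other groups. The code was tested on simulated data. The members, the lists and the variance model were chosen with earlier results of these data known. The text names all 9 members, Tcf7l1, for each member the 2 genes with the most similar profile, 5 genes for the mean profile, and up to 4 genes a list with the largest differences. Further genes were named after their values had been seen: Elf5, Tpbpa, Postn, Zfp42, Prdm14, Fbxo15, Dcx, Map2, Sox1, Krt18, Gata6, Stmn2, Tubb3, Pax6, Krt7, Gata3, Epcam, Cdh1, Krt1 and Ivl. The contrast of both depletion effects, the shares of fitted differences above 0 and the counts of arrays apart by a fixed step were added after seeing the data. Clone numbers 1 and 2 recur in OCK ko and OSK ko clones, but no label says that they mark a shared origin.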

Additional observations from a re-analysis of the deposited data

How the results depend on the processing

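Over all members, comparisons and alternatives, 621 of the repeated values kept direction and side of the threshold, 29 lost a call, 5 gained one and 7 turned sign. The 7 were Klf5 after siRNA (0.020 with median centring), ko against wt cultures for Nanog (-0.087 without day 19; up to 0.60 with a day left out), Nr0b1 (-0.026 without day 22; up to 0.87), Tbx3 (-0.098 without day 26; up to 0.24) and Klf2 (-0.056 without day 26; up to 0.44), the slope difference of Tbx3 (-0.043 without day 26; up to 0.053) and OCK against OSK ko for Nr5a2 (-0.055 without OCK ko clone 1; up to 0.22); none of these had passed.

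The 5 members called for the change per day (4921 genes in all) became 3 with limma's plain prior (3171 genes), 2 among genes with no floored array (the others being left out by that filter), 2 with a line through day means (351 genes) and 0 to 5 with a day left out (0 genes without day 11, 1935 without day 15). Without day 26 Tbx3 fell by 0.084 per day (limma adjusted p = 0.0109). The 1 member called for OSK ko against wt (87 genes) became 0 with the plain prior (123 genes), with every probe set on its own, among genes above the floor (28 genes), in the fit of the 5 iPSC arrays (0 genes) and without either ko clone (0 to 0 members, 0 genes). The 2 members called for OCK against OSK ko (1377 genes) became 1 with the plain prior (528 genes), 1 with probe sets averaged per gene, 0 among genes above the floor, and 0 to 4 with a clone left out (8 and 18 genes without OSK ko clone 1 and 2, 2958 and 3614 without OCK ko clone 1 and 2). With clone number as a replicate block 1 member was called (142 genes; Tbx3 adjusted p = 0.0616); deviations of same-numbered clones correlated with r = -0.12 over genes, and with the numbers crossed 0 members were called (2 genes; Tcl1 adjusted p = 0.0563, Tbx3 0.0642). The 9 members called for iPSC against partial clone became 5 among genes above the floor, where the other 4 are left out, and stayed 9 to 9 with an array left out. The siRNA calls over all genes (14, 0 members) were 252 with the plain prior, 8 with the mean of probe sets or median centring, 0 among genes above the floor, and 1 and 0 without siTcf3-A and -B. Except where named, the cause was not tested. Signal near the floor limits Esrrb, Nr5a2 and Tcl1 in cultures and 4 members in the partial clone.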

Other observations

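Of 11 genes of the primed epiblast tested between the ko clones made with either factor set, 1 rose and 2 fell in OCK ko, against 4.87% and 5.8% of all genes, and 8 did not pass. Lef1, a Wnt effector of the Tcf/Lef family, fell in OCK ko against OSK ko clones (-1.53 ± 0.14 log2, SE, 2 arrays each; limma adjusted p = 0.00538), as did the methyltransferase gene Dnmt3a (-1.72 ± 0.36, adjusted p = 0.035), and Sox3 rose (1.16 ± 0.22, adjusted p = 0.0284). The median of the 11 was -0.068, against -0.018 over all genes. Without OSK ko clone 1 or 2 none of the 3 calls held (adjusted p = 0.0565 and 0.0675 for Lef1, 0.189 and 0.179 for Dnmt3a, 0.0883 and 0.176 for Sox3), in settings where 8 and 18 genes of the array passed.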
